A study of Mus musculus with 23 samples.

Results

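The samples were 9 lymphoma lines, which the study established in culture from tumour-bearing spleens of mice that lacked both Atm and Cd3e, and they made up 9 of the 22 samples in the series. They were the samples whose titles mark them as B cell lymphoma, and they were measured on 10 one-colour Agilent whole mouse genome arrays. All lines carried both knockouts (label ATMKO.CD3eKO) on a mixed C57BL/6 x 129 background. The sex of the mice is not given in the labels, and no treatment is named. The cells grew in suspension in supplemented RPMI1640 medium. Each line was 1 culture, so every spread below is a spread among single cultures and holds differences between tumours, between cultures and between arrays. No spleen was compared with the lines here.

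Atm encodes the kinase that senses DNA double-strand breaks and arrests the cell cycle, and mice without it develop lymphomas. Cd3e encodes part of the receptor by which T cells see antigen, and its loss stops T cell development. B cells pass through stages that are marked by different genes, from pro-B cells that express the Rag recombinase, through mature B cells, to germinal centre cells that need Bcl6 and plasma cells that need Prdm1 and Xbp1. Lymphomas of one genotype can differ in stage, in cell cycle activity, in metabolism and in single genes that were switched on or silenced in one tumour.

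Levels are log2 processed signal minus the 75th percentile of the array, so a level of 0 is the signal at that percentile. A gene was called on in a line when the scanner's software found its spot well above background, and off when it did not. A value in an off line is only a bound, since it lies within the background. A gene was tested when it was on in at least 5 lines, which kept 11830 of 18217 named genes. Of those, 10415 genes were on in all 9 lines. Between 54.9% and 62.3% of the spots of an array were well above background and 0 spots were saturated.

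The labelled cell type was checked against B cell markers, and all lines carried them. The level of Ms4a1, which encodes CD20, lay between 6.71 and 7.35. Cd79a and Cd79b, the signalling chains of the receptor, were on in every line, at 1.16 to 2.69 and at 7.21 to 8.25. Pax5, the factor that commits cells to the B lineage, ran from -1.50 to -0.72, a 1.71-fold range. Rag1 and Rag2 were not well above background in any line. Blnk, an adaptor below the receptor, and Pou2af1, a B cell co-activator, were among the even genes, with SDs over lines of 0.19 and 0.15. The probe of Atm ran from -4.38 to -2.77 and that of Cd3e from -3.30 to -1.22. Both were above background, and since it is not known here whether these probes lie in the deleted parts, the levels check nothing about the knockouts.

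Before the results, the arrays of line 8 need a statement. Both carry the same number in their titles and one title marks a repeat, so they were averaged, yet the design text counts the 10 arrays as 10 lines. They did not behave as repeats. After each gene was centred on its mean over the arrays, their levels correlated across the 11830 genes at r = 0.0778, while the arrays of lines 4 and 5, which are named as different lines, correlated at 0.681 (genes are not independent replicates). Between the arrays of line 8, 1595 genes (13.5%) differed by more than 2-fold. Over the 44 pairs of arrays of different lines that number ran from 695 to 3158, with a median of 2048. Lines 4 and 5 gave the 695. By the centred correlation each array of line 8 was still the one most like the other. By uncentred levels the array without the mark correlated at 0.958 with the repeat and at 0.963 with line 3. Single genes were on in one and off in the other: Fam174b, a membrane protein gene, was at -8.06 on the array without the mark and at 3.43 on the repeat, and Lxn, which encodes the carboxypeptidase inhibitor latexin, was at 2.71 and -8.26. For 484 genes the on or off call differed between them. Whether these arrays hold 2 RNA samples, 2 cultures or 2 tumours was not tested. Values of line 8 are therefore means over arrays that differed, and the counts by SD and the SDs of the leading variable genes are given without line 8 too.

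**Figure D1:**
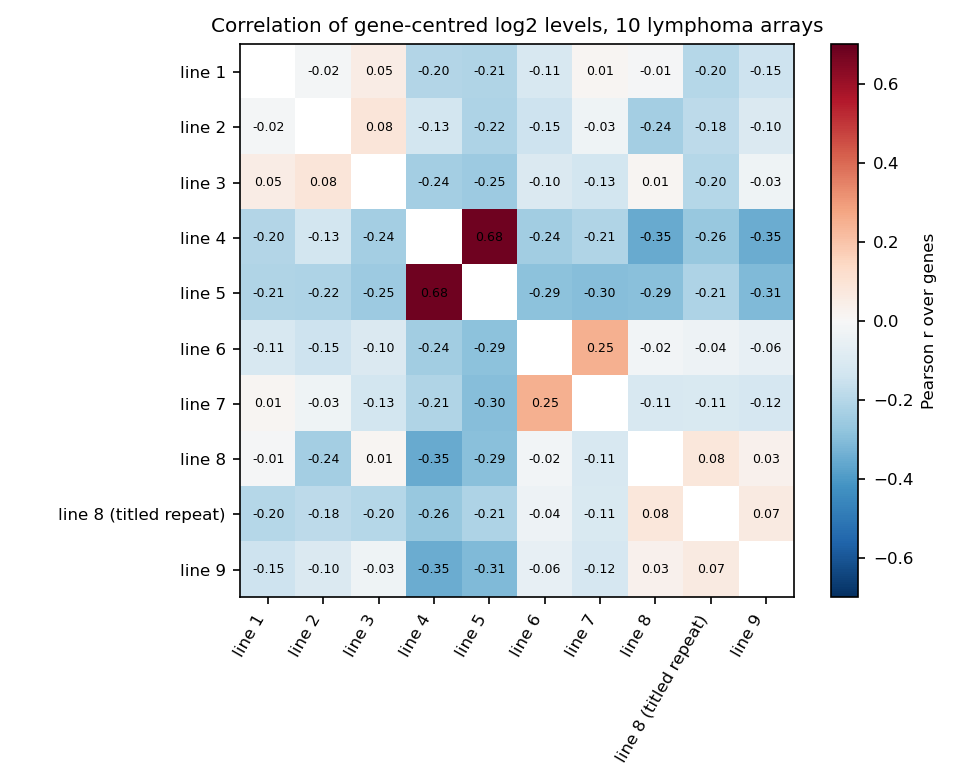
Pearson correlation across 11830 genes between each pair of the 10 lymphoma arrays, after each gene's log2 level was centred on its mean over the arrays. Lines 4 and 5 stand out at 0.681, lines 6 and 7 follow at 0.249, and the arrays of line 8 are at 0.0778.

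Lines 4 and 5 were the most alike. Their levels differed by more than 2-fold for 695 genes (5.87%), and 223 genes had both lines more than 2-fold above or below all 7 others. The median over the 36 pairs of lines was 10 such genes, and the next pair, lines 2 and 9, had 37. Of the 223 genes, 105 were higher in lines 4 and 5 and 118 were lower. These lines shared a slide that held no other line, so for this pair slide and line cannot be told apart. On the slide of lines 7, 8 and 9 the 5 pairs of arrays of different lines had centred correlations of -0.116 to 0.0654, and pairs on different slides had -0.355 to 0.249. Lines 6 and 7, from different slides, were the next pair, with 1370 genes that differed by more than 2-fold and 8 that differed by more than 32-fold. The 2 lines of the first pair still differed by more than 32-fold for 34 genes.

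The spread over lines differed between genes, and a minority varied greatly. The median SD over the 9 lines was 0.386 on the log2 scale, and 0.387 without line 8. The range over lines stayed under 2-fold for 4614 genes (39.0%), passed 2-fold for the other 61%, and passed 16-fold for 826 genes. An SD of at least 1 was seen for 1360 genes (11.5%), or 1359 without line 8, and one of at least 2 for 293 genes, or 329 without line 8. Of the 1360 genes, 713 also differed by more than 2-fold between the arrays of line 8. With normexp background correction, an alternative chosen after seeing the data, 498 genes had an SD of at least 1. The spread depended on the level. Among genes with a mean level of -9 to -4 the median SD was 0.743 and 31.7% reached an SD of 1, while at levels of 2 to 10 the median was 0.300 and 1.75% did. The arrays of line 8 spread likewise, with a root mean square SD between them of 1.02 at the lowest levels and 0.369 at the highest. Where another tested probe matched the same gene, 290 genes with an SD of at least 1 had a median r of 0.961 between probes over the lines, while 21 of them had an r under 0.5.

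**Figure D2:**
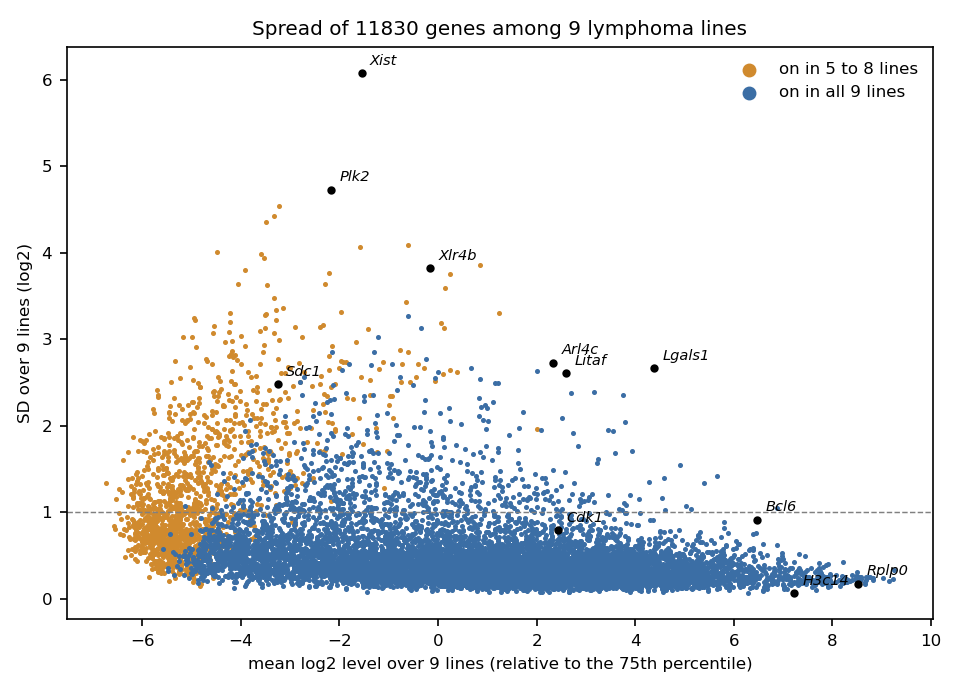
SD over 9 lines (log2) against mean level (log2 relative to the 75th percentile) for 11830 genes, with genes on in 5 to 8 lines in orange and genes on in all lines in blue, and the dashed line at an SD of 1. Large SDs gather at low levels, with Xist at the top at 6.08, while Lgals1 at an SD of 2.67 is one of the few at a high level.

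Among the genes within the filter none could be called different among lines against the noise of the arrays of line 8. The test was limma's F-test over the 9 lines, in which those arrays gave the residual, and 0 of 11830 genes (0%) passed an adjusted p of 0.05. At an unadjusted p under 0.05 there were 1177 genes. Without the filter on dim probes the same test called 4473 of 18199 genes, and the cause of that change was not tested. Since that residual comes from 1 pair of arrays that differed as widely as different lines, the test can miss true differences, and the spreads below are descriptions. limma's comparison of lines 7, 8 and 9, which shared a slide, with the other 6 called 0 of 11830 genes (0%) and gave 1493 at an unadjusted p under 0.05.

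The sharpest pattern was that of the sex chromosomes. Xist, the RNA that coats the inactive X chromosome of female cells, had the largest SD of all tested genes, 6.08 (6.07 without line 8). It was on in lines 3, 6, 7, 8 and 9 at 2.54 to 4.28 and off in lines 1, 2, 4 and 5 at -8.54 to -7.37. No level lay between, and the mean of the on lines was at least 926-fold above that of the off lines. In this and the folds of on over off lines below, an off line counts at no less than the lowest signal called above background on its array. The probe for Tsix, the transcript antisense to Xist, was at -3.91 to -1.29 in the 5 lines with Xist and at -8.77 to -7.91 in the other 4. The Y-linked genes Eif2s3y and Kdm5d ran the other way. Eif2s3y, which encodes a subunit of a translation initiation factor, was on in lines 1, 2, 4 and 5 at 2.51 to 3.25 and off in the other 5 at -8.89 to -7.28, and its mean was at least 509-fold higher in the on lines. Kdm5d, a histone demethylase gene of the Y chromosome, was on in the same 4 lines, at -0.91 to -0.22. Ddx3y, a Y-linked RNA helicase gene, was on in lines 2, 4 and 5 at 0.90 to 1.74, but in line 1 it was off at -7.21. A second, dimmer probe for Ddx3y was called on only in line 2, at -5.48, and was at -7.18 and -5.91 in lines 4 and 5. By the first probe, line 1 thus had 2 of these Y-linked genes on and the third off. The order along the chromosome is Zfy1, Kdm5d, Eif2s3y, Uty, Ddx3y, Usp9y and Sry. The cause of the pattern in line 1 was not tested. Usp9y and Zfy1 were off in every line. Other Y-linked probes did not mirror Xist. A probe for Uty, a histone demethylase gene, was called on only in lines 2 and 7, at -6.14 and -4.58, and a second probe for it in no line. The probe for Sry, the testis-determining gene, was called on only in line 7, at -5.00, although Xist was on there. The lowest signals called above background were at -6.69 on the array of line 2 and -5.26 on that of line 7. These Uty and Sry calls therefore lay close to background. None of the Y-linked genes was on in the 5 lines needed for the test, so their SDs are outside the counts above.

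Xlr and Xlr4b, X-linked genes of a lymphocyte-regulated family, differed in pattern. Xlr was on in lines 1, 2, 4 and 5, those without Xist, and off in the other 5 at -8.13 to -5.37. It was at 3.16 and 3.79 in lines 4 and 5 and at -5.02 and -1.76 in lines 1 and 2. Line 1, called on, thus lay close to line 7, called off at -5.37. Xlr4b was on in all lines, at 4.34 in line 1, -5.23 in line 2, 4.08 in line 3, -1.86 in line 4, -4.04 in line 5, 2.16 in line 6, 3.32 in line 7, 0.15 in line 8 and -4.33 in line 9. Its SD of 3.82 (4.08 without line 8) was the largest among named genes on in all 9 lines. The value of line 8 is a mean of -4.08 and 4.37. Lines with and without Xist stood at both ends of its range. The gene whose pattern was most like that of Xlr4b over the 9 lines was Ugp2, which makes UDP-glucose, with a Pearson r of 0.924. Ugp2 itself had an SD of only 0.205. It was picked as the highest r among all named genes tested, and whether so high an r arises by chance was not tested.

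Other genes on in all lines covered ranges of over 100-fold. Cidea, a lipid droplet protein gene, ran from -4.19 to 3.61 with a median of -2.13, and lines 2, 3, 8 and 9 were high at 1.69 to 3.61 while the other 5 were at or below the median. Its nearest gene by pattern was Copa, which encodes a coatomer subunit, with r = 0.969. Copa was picked in the same way, and its SD of 0.330 was under the median of all genes tested, 0.386. Prelid2, a gene of the PRELI family, ran from -5.46 to 2.68 with a median of 0.18, and lines 5 and 9 were low at -5.46 and -5.25. Slc15a2, a peptide transporter gene, ran from -5.35 to 1.84 with a median of 0.42. It was low in lines 1, 2 and 9 and stood at 0.42 to 1.84 in lines 3 to 7. The arrays of line 8 differed for both, and for Slc15a2 they were at 0.73 and -4.89. The SDs of Cidea, Prelid2 and Slc15a2 were 3.27, 3.14 and 3.03, and without line 8 they were 3.11, 3.32 and 3.22. Gabrr1, a GABA receptor subunit gene, was at 3.73 in line 6 and 1.19 in line 1 and between -4.25 and -1.15 in the other 7.

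Line 5 was set apart from all others by a group of abundant genes. Lgals1, which encodes the secreted lectin galectin-1, was at -1.93 in line 5, had a median of 5.52 and reached 6.38 in line 1, a 316-fold range. The next lowest, 2.62, was line 4. Arl4c, a small GTPase gene, was at -4.55 in line 5 and between 1.80 and 4.62 in the others, a 576-fold range. Ehd3, which encodes a membrane trafficking ATPase, was at -4.75 in line 5 and between 1.32 and 3.64 in the others. Line 4 was the second lowest for each of these 3 genes. Lef1, the transcription factor that answers Wnt signals, was at -6.17 in line 5, -1.17 in line 4 and 0.08 to 2.36 elsewhere. Over all tested genes, 792 (6.69%) had 1 line apart from the others by the rule that these 4 genes met, a gap to the next line past Dixon's critical value. Among the 1360 genes with an SD of at least 1, line 5 was lowest for 285 (21.0%) and highest for 220 (16.2%), while line 2 was highest most often, for 243 (17.9%). A line was highest for 5.44% to 17.9% of these 1360 genes and lowest for 3.90% to 21.0%. Counts of list members highest or lowest in a line, given below, have no such share over all tested genes beside them.

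Lines 4 and 5 shared several genes at levels that no other line reached. Bcl11b, a transcription factor gene of the T lineage, was on in lines 4 and 5 at 2.71 and 3.22 and off in the other 7 at -8.72 to -5.67, so that its mean was at least 577-fold higher in the on lines. Bst1, a surface enzyme of early B cells and stromal cells, was at 1.15 and 0.76 in lines 4 and 5 and at -7.79 to -4.32 in the others. Vpreb3, which binds immunoglobulin chains in early B cells, was at 1.40 and 1.89 and was lower in the other 7, down to -5.66 in line 7, with arrays of line 8 at 0.29 and -4.56. Epor, the erythropoietin receptor gene, was at 1.04 and 1.08 against -3.72 to -2.16. They also shared the lowest levels of Litaf, a regulator of endosomal sorting, which was at -1.27 and -1.52 there and at 1.05 to 5.55 in the others. A second probe for Litaf followed the first at r = 0.997 over the 9 lines. Gpr183, the receptor that places B cells in follicles, was at -2.89 and -2.57 in lines 4 and 5 and 0.08 to 3.64 in the others.

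**Figure D3:**
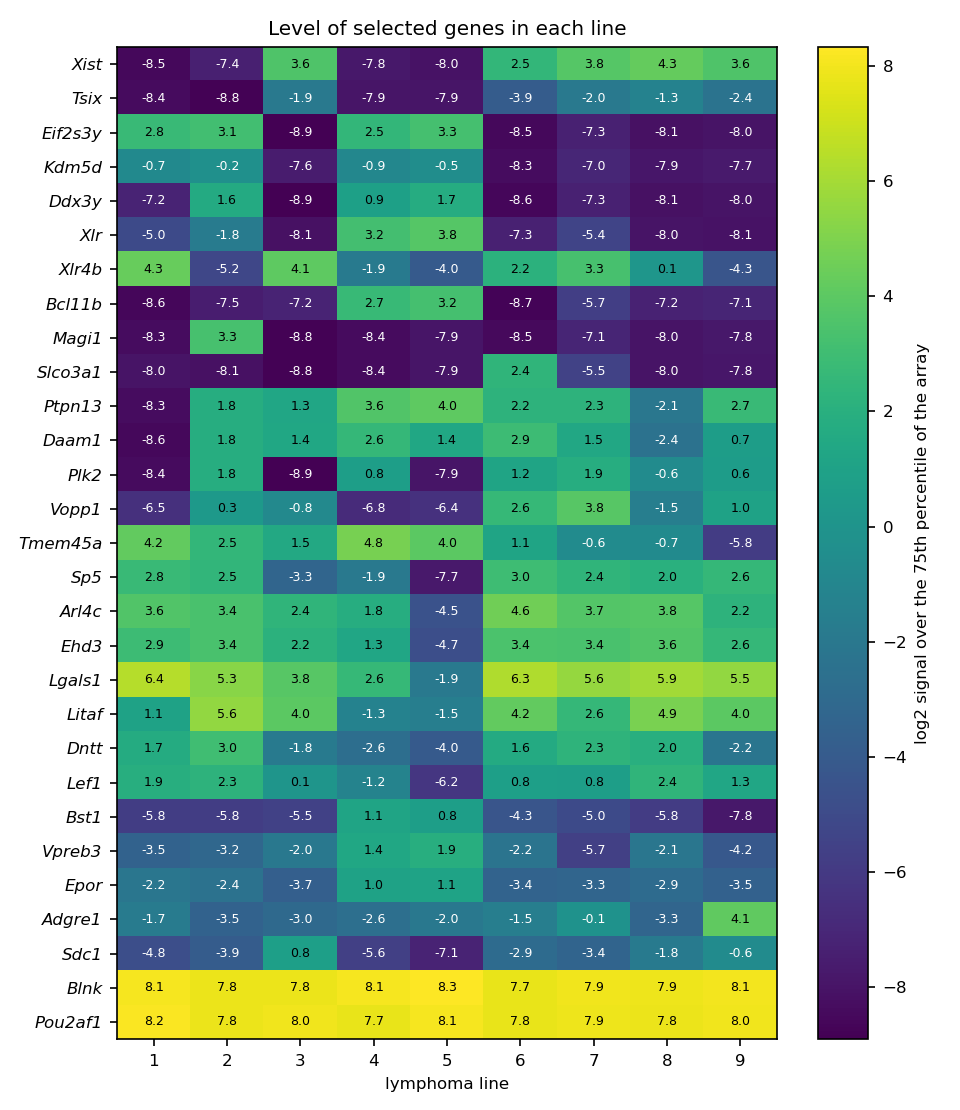
Log2 level (relative to the 75th percentile of the array) of 29 selected genes in each of the 9 lines, by colour and number. Xist and the Y-linked genes split the lines 5 to 4, lines 4 and 5 share Bcl11b, Bst1, Vpreb3 and Epor, and Blnk and Pou2af1 are even.

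Genes on in some lines and off in others numbered 1335 of the 11830 tested (11.3%), and in 330 of them the highest line was at least 16-fold above an off line. In 86 of the 1335 the lowest on line lay at least 4-fold above the highest off line. Line 7 alone was off for 181 genes, line 9 alone for 116 and line 5 alone for 115. Line 9 was off for 632 of the genes in all and line 7 for 597. The lowest signal called above background was highest on the array of line 7, at a level of -5.26 against -6.74 to -5.83 on the others, and its part in these counts was not tested. Tmem45a, a transmembrane protein gene, was off in line 9 alone, at -5.82, while the others ran from -0.67 to 4.81, and their mean was at least 242-fold higher. Plk2, a kinase gene that p53 induces, was off in lines 1, 3 and 5 at -8.87 to -7.92 and on in the others at -0.60 to 1.87, with a mean at least 156-fold higher. Vopp1, a gene of an endosomal protein, was off in lines 1, 4 and 5 at -6.78 to -6.41 and reached 3.84 in line 7. Sp5, a target of Wnt signalling, was off in line 5 alone at -7.75, and in the others ran from -3.25 to 3.00.

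Line 1 lacked several genes that the others had. Ptpn13, a tyrosine phosphatase gene, was off in line 1 at -8.33, was on in one array of line 8 at 2.06 and not in the other at -6.21, and ran from 1.30 to 4.03 in the other 7. Daam1, a regulator of actin assembly, was off in line 1 at -8.55 and on in the others, at -2.43 to 2.92. Emb, which encodes the adhesion protein embigin, was off in line 1 at -8.04 and on in the others, from -3.92 in line 2 to 2.94 in line 9. The arrays of line 8 were at -3.24 and 1.30 for Emb. The mean of the on lines was at least 497-fold above line 1 for Ptpn13, with line 8 left out, 194-fold for Daam1 and 101-fold for Emb.

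A further 2319 genes were on in only 1 to 4 lines and so lay outside the test, 114 of them with the highest line at least 16-fold above an off line. Magi1, a scaffold protein gene of cell junctions, was on in line 2 alone at 3.33 and at -8.79 to -7.14 in the others, so that line 2 was at least 692-fold above their mean. Slco3a1, an organic anion transporter gene, was on in line 6 alone at 2.39 and at -8.78 to -5.49 in the others, so that line 6 was at least 367-fold above their mean. Pgbd5, a gene derived from a transposase, was on at 3.39 in line 2 and at -1.60 in line 5, and off in 6 others at -9.06 to -5.92. In line 8 it was on in the repeat array at -3.27 and not in the other at -8.18. Prdm16, a transcriptional regulator gene, was on in lines 3, 4 and 7 at 1.75, -0.59 and -4.10, and the mean of these was at least 37.9-fold above that of the off lines. Genes on in a single line numbered 1214, but 618 of these were on in line 7 alone, and in 2 of the 618 that line was at least 16-fold above another.

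The most even of the named genes were the following. H3c14, a histone H3 gene, had the smallest SD of all tested genes, 0.0684, with levels of 7.16 to 7.32. Cwc15, a splicing factor gene, ran from 6.19 to 6.39, and Drap1, a gene of a transcriptional co-repressor, from 2.03 to 2.26. Med15, a Mediator subunit gene, and Tor1a, an ATPase gene of the endoplasmic reticulum, ranged 1.18-fold each. The arrays of line 8 were less even than their mean, since H3c14 was at 7.55 and 6.98 on them. An SD under 0.2 was found for 1160 genes (9.81%). Among such genes with a second probe the median r between probes was 0.463, so what variation remained was shared less between probes than in the variable genes.

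The stage markers were described next. Bcl6, the repressor that defines germinal centre B cells, was on in all lines and ran from 5.52 in line 3 to 8.29 in line 5, with a median of 6.26, and lines 4 and 5 at 7.66 and 8.29 stood above the other 7. Prdm1, the repressor that drives plasma cell development and opposes Bcl6, ran from -1.84 in line 7 to 2.29 in line 3, a 17.4-fold range. Irf4, which acts with Prdm1, was lowest in line 5 at 1.08 and highest in line 3 at 2.74. Sdc1, which encodes the plasma cell surface protein CD138, was at 0.80 in line 3, -0.60 in line 9 and -7.15 in line 5, a 246-fold range. Jchain, the joining chain of secreted antibody, ran from 3.33 in line 4 to 7.36 in line 3. Line 3 was highest for 9 of the 16 tested members of the plasma cell list, and the mean of the list relative to its mean over lines, here called its score, was 1.20 in line 3 and -0.69 to 0.36 in the others. Line 3 was highest for that list under both other scalings of the arrays too. The germinal centre list as a whole did not move together, with a mean correlation between members of 0.0212 over 21 tested genes, although 6 of them were among the tenth of genes with the largest SD.

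Markers of early B cells and of T cells were present in parts. Dntt, the polymerase that adds bases to antibody gene joints in early lymphocytes, was on in all lines but spread from -4.02 in line 5 to 3.04 in line 2. Lines 3, 4, 5 and 9 were low at -4.02 to -1.78, and the other 5 lay between 1.62 and 3.04. Of 20 genes of the early B list on the array, 13 were tested and 5 were not well above background in any line. Of all named genes on the array, 11830 of 18217 were tested and 2319 more were on in 1 to 4 lines. The share of the early B list that was tested was close to that of all genes. Of 25 T cell genes on the array, 12 were tested and 8 were off in all lines, Cd8a among them. Cd3g, which belongs to the same receptor as Cd3e, was at 2.95 to 4.41 in 7 lines but at -0.48 and -2.21 in lines 3 and 9, and Cd3d was low in the same lines at -3.34 and -3.61, along with line 8 at -2.57. Zap70, the kinase that carries the T cell receptor signal, ran from -5.98 in line 3 to 3.75 in line 9, with the arrays of line 8 at -5.27 and 2.30. Lck, the Src kinase of T cells, was on in all lines at 0.24 to 3.97. Defining markers were therefore not all present or absent together, and the part of any T cells in these values was not tested.

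Single markers of other blood cells stood out in single lines. Adgre1, which encodes the macrophage antigen F4/80, was at 4.10 in line 9 and -3.48 to -0.09 in the others. Of 25 macrophage and monocyte genes on the array 13 were tested and 4 were off in all lines, and the score of the list was 0.24 in line 9 against a range of -0.44 to 0.41. Fcgr4, a macrophage and neutrophil antibody receptor, was at 1.32 in line 2 and -4.85 to -3.06 elsewhere. Itgax, which encodes CD11c, was also highest in line 2, at 3.01, and so was the dendritic cell score, at 0.93. The macrophage and monocyte score of line 2, in which Fcgr4 counts, was 0.006. Line 2 was lowest for 4 of the 13 tested members of that list and highest for 2. Hba-a1, the alpha-globin gene, was at 0.97 in line 3 and -4.86 to -3.44 elsewhere, and the erythroid score of line 3 was 0.57. Of 20 neutrophil genes on the array, 5 were tested and 8 were off in all lines, and of 23 natural killer genes 6 were tested and 8 were off. Over all named genes on the array, 11830 of 18217 were tested. Whether a few other cells remained in these cultures was not tested.

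Among the 25 lists of genes that share a function and had at least 5 tested members, cell cycle genes moved together most. The mean correlation between the 40 tested members was 0.736, or 0.711 without line 8. Line 9 was highest for 33 of the 40 and line 2 lowest for 32. Their score was -0.86 in line 2, 0.52 in line 8 and 0.78 in line 9, and -0.36 to 0.11 in the other 6. Cdk1, the kinase that starts mitosis, ran from 0.68 in line 2 to 3.34 in line 9, with a median of 2.42. Cdc6, which loads the replicative helicase, ran from 0.27 in line 2 to 2.70 in line 9. Mcm5, a subunit of that helicase, ran from 3.88 to 6.23 between the same lines, and Foxm1, the factor behind mitotic genes, from 1.23 to 3.48. E2f2 stayed within 5.17 to 5.68. The range passed 2-fold for 37 of the 40 members against 61% of all tested genes, but 0 of the 40 lay in the tenth with the largest SD: the shift was wide in genes and moderate in size. Line 2 was lowest and line 9 highest under both other scalings.

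Genes that repair DNA breaks had their extremes in the same lines. Of 33 tested members, line 2 was lowest for 21 and line 9 highest for 14, and the score ran from -0.60 in line 2 to 0.48 in line 9. Rad54l, a partner of the recombinase in homologous recombination, ran from -0.50 in line 2 to 2.23 in line 9. Exo1, the exonuclease that trims broken ends, was highest in line 9 at 3.66 and in line 8 at 2.88, and lay between 1.44 and 2.55 in the other 7. Across the 9 lines the cell cycle and repair scores correlated at r = 0.936 (exact permutation p = 0.00121, two-sided) and rho = 0.767. The p adjusted over the 300 pairs of 25 function lists was 0.121, above the threshold. Without lines 2 and 9, the farthest from the median, r was 0.720, and within the 6 lines off the shared slide it was 0.850.

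**Figure D4:**
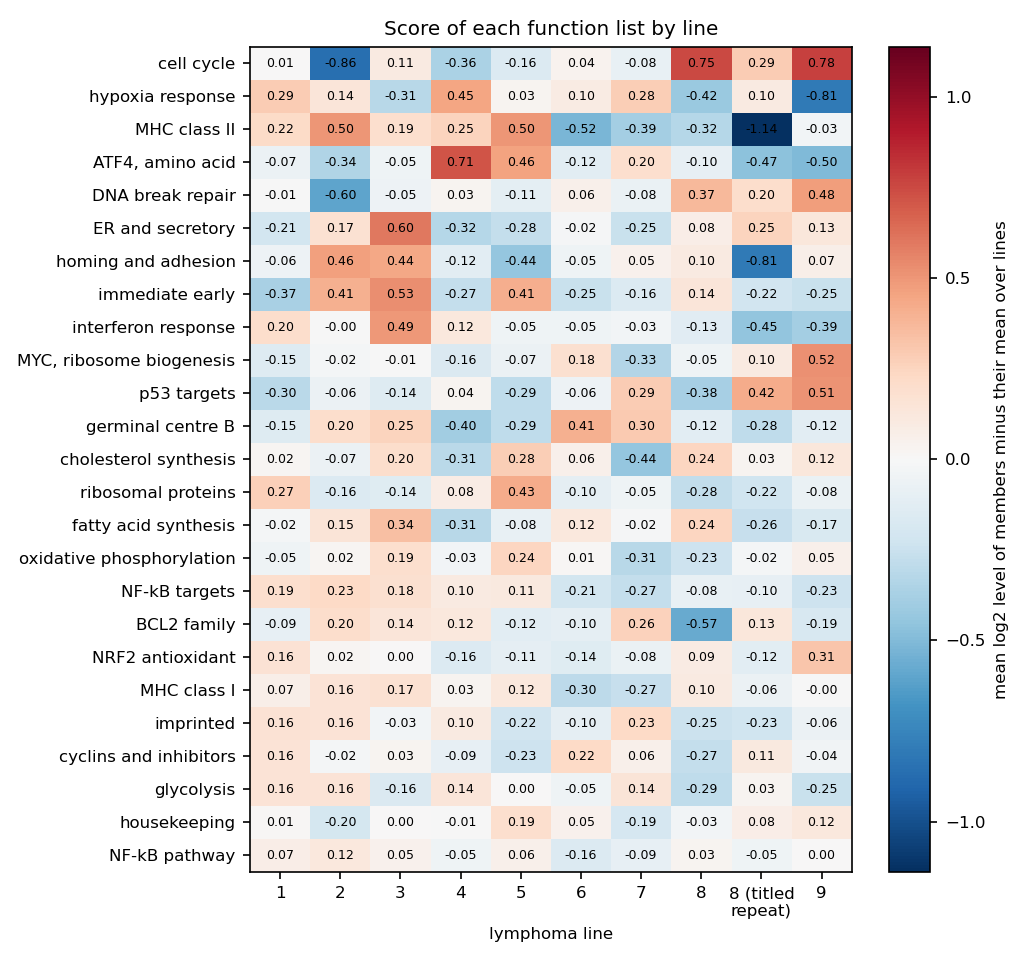
Score of each of 25 function lists (mean log2 level of its tested members minus their mean over the lines) in each line, with the arrays of line 8 apart, ordered by range. The cell cycle score runs from -0.86 in line 2 to 0.78 in line 9, and the MHC class II score on the repeat array of line 8 is -1.14.

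Genes of MHC class II, which presents peptides to T helper cells, split the lines into a low and a high set. Line 8 was lowest for 10 of the 14 tested members, line 7 for 2 and line 6 for 1. The scores of lines 6, 7 and 8 were -0.52, -0.39 and -0.73, against -0.03 to 0.50 in the other 6. The arrays of line 8 were at -0.32 and -1.14. Ciita, the activator that controls the group, was lowest in those 3 lines at 2.24, 2.58 and 2.04 and stood at 3.23 to 4.29 in the others. H2-Aa and H2-Ab1, chains of the classical molecule, ran from 3.79 to 5.42 and from 5.89 to 7.47, with the same 3 lines at the bottom. Cd74, the invariant chain, ran from 7.28 to 8.52 and again put these 3 lines lowest. H2-Oa, a chain of a peptide loading regulator, differed in order, with line 3 at 0.50 next to lines 8 and 6 at 0.37 and 0.73. Rfx5, a subunit of the factor that binds class II promoters, stayed within -2.88 to -2.42. The median SD of the list was 0.607, and 0.495 without line 8, against 0.386 over all genes tested. Line 9, which shared a slide with lines 7 and 8, had the next lowest score at -0.03, and lines 1 to 5 were at 0.19 to 0.50. The part of the slide was not tested.

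Genes of the endoplasmic reticulum, which fold and export secreted proteins, were highest in line 3, as were the plasma cell genes. The lists share members, Creld2 and Derl3 among them, so their scores are not independent. Line 3 was highest for 15 of the 29 tested members and line 4 or 5 lowest for 15, and the score ran from -0.32 in line 4 to 0.60 in line 3. Among the 1360 genes with an SD of at least 1, line 3 was highest for 7.72%, and lines 4 and 5 were lowest for 11.7% and 21.0%. Creld2, which is induced when unfolded protein builds up, ran from 5.28 in line 4 to 7.62 in line 3, with a median of 6.55. Pdia4, a disulfide isomerase gene, ran from 1.81 in line 1 to 4.54 in line 3. Hspa5, the main chaperone of the compartment, ran from 5.79 in line 4 to 6.81 in line 3, a 2.04-fold range. Hsp90b1, another chaperone there, was lowest in line 4 at 5.51 and highest in line 9, a 2.81-fold range, with line 3 next to the top at 6.83. Xbp1, the factor that plasma cells use to raise these genes, was lowest in line 5 at 2.92 and highest in line 8 at 4.57, with line 3 at 4.47. Line 3 was highest for this list under both other scalings, but the lowest line changed to line 7 or line 5.

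Promoters of these genes were searched for the endoplasmic reticulum stress response element, a pair of short boxes bound by NF-Y together with ATF6 or XBP1, since the members had a mean correlation of 0.408 over the lines. The letters searched were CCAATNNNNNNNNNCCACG, on both strands, in the 300 bases from 250 before to 50 after the start of each gene in the RefSeq table of assembly GRCm38.p6. A match was found in 9 of the 24 tested members with a promoter in the table (37.5%), and in 37 of all 27025 genes (0.137%). The list was picked by function, so these shares describe the list and test nothing about the lines. A promoter was matched by symbol for 24 of the 29 tested members. The promoters of 3 members whose levels are given above are printed 5′ to 3′ on the strand of the gene, with the match in capitals, so that its place can be seen. Hspa5 is at chr2:34771840-34772139 on the plus strand, Creld2 at chr15:88819396-88819695 on the plus strand and Hsp90b1 at chr10:86705395-86705694 on the minus strand, where there were 2 matches. A match that reads CGTGG first lies on the strand opposite to the gene.
Hspa5: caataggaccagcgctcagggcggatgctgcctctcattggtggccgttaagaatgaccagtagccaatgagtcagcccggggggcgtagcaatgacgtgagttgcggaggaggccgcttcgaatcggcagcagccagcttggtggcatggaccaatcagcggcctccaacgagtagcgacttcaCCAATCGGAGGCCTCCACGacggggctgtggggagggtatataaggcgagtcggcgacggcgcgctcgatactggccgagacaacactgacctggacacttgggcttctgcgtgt
Creld2: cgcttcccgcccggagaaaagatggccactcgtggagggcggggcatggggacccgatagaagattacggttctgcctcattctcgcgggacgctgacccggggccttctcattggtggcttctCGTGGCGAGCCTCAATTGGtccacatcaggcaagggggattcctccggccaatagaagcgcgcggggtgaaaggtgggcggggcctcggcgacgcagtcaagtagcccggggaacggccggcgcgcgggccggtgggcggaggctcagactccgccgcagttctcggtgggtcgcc
Hsp90b1: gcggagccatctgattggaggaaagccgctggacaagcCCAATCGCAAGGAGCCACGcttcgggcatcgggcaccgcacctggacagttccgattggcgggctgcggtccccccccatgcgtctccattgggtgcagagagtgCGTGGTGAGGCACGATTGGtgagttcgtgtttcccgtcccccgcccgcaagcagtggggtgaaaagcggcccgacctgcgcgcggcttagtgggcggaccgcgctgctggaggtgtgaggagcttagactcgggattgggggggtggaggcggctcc
The 9 genes with a match had SDs over lines of 0.20 to 0.76, with a median of 0.52, and line 3 was highest for 5 of them and line 4 or 5 lowest for 7. Among the 15 members without one, the median SD was 0.38, line 3 was highest for 7 and line 4 or 5 lowest for 5. Whether any match is bound in these cells was not measured.

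Targets of ATF4, the factor that raises amino acid synthesis and transport under stress, were highest in lines 4 and 5. The score was 0.71 in line 4 and 0.46 in line 5 and ran from -0.50 to 0.20 in the other 7, and line 4 or 5 was highest for 21 of the 30 tested members. Ddit3, which encodes the stress factor CHOP, ran from -0.44 in line 9 to 3.66 in line 4, with a median of 1.81. Trib3, a pseudokinase gene that ATF4 induces, ran from 0.60 in line 9 to 4.32 in line 4. Chac1, which degrades glutathione, ran from 0.78 in line 9 to 4.04 in line 4. Stc2, a secreted glycoprotein gene, was at -4.11 in line 9 and -0.67 to 3.10 in the others. For each of these 4 genes lines 4 and 5 were the highest pair. Atf4 itself stayed within 2.75 to 3.37, with line 5 highest and line 4 next. Of the 30 members, 6 were among the tenth with the largest SD, and line 4 had the highest score under both other scalings.

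Genes of the hypoxia response, which cells raise when oxygen is short, and of glycolysis had the pair of scores with the lowest p, which did not pass the threshold. The hypoxia score ran from -0.81 in line 9 to 0.45 in line 4 and the glycolysis score from -0.25 in line 9 to 0.16 in line 1 and line 2. Their correlation was r = 0.914 (exact permutation p = 0.000198, two-sided) and rho = 0.833, with an adjusted p of 0.0595. Over 21 settings r ran from 0.578 to 0.951 and the adjusted p from 0.0370 to 0.701. With arrays centred on the median the glycolysis score had other extremes, -0.28 in line 7 and 0.25 in line 1. Without lines 3 and 9, r was 0.845, within the 6 lines off the shared slide 0.867, and without line 8 0.922. No gene stood in both lists as tested. Vegfa, the growth factor for blood vessels, ran from -3.47 in line 9 to 1.99 in line 4. Slc16a3, the exporter of lactate, was at 1.20 in line 5 and 3.55 to 5.61 in the others. Aldoc, an aldolase gene, was low in lines 4, 5 and 9 at 1.19, 0.90 and 1.63 and ran from 3.17 to 4.81 in the other 6. Members thus differed in their low lines, and the mean correlation between members was 0.118 in the glycolysis list and 0.172 in the hypoxia list.

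Over all 300 pairs of lists, 0 passed an adjusted p of 0.05 by the exact permutation of Pearson's r (0%), 0 did by Spearman's rho, and 27 had an unadjusted p under 0.05 by r. The NF-kB pathway and MHC class I lists correlated at r = 0.908 (exact permutation p = 0.000642, adjusted p = 0.0963) and rho = 0.817. Lines 6 and 7 were lowest in both, and without lines 2 and 6 r was 0.839. The NF-kB target and MHC class I lists correlated at r = 0.831 (exact permutation p = 0.00170, adjusted p = 0.127), and lines 6 and 7 were again low in both, beside line 9 in the targets. The hypoxia list and the list of MYC and ribosome biogenesis genes ran in opposite directions at r = -0.836 (exact permutation p = 0.00893, adjusted p = 0.335), but r was -0.594 without the 2 farthest lines and -0.463 in the 6 lines off the shared slide.

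**Figure D5:**
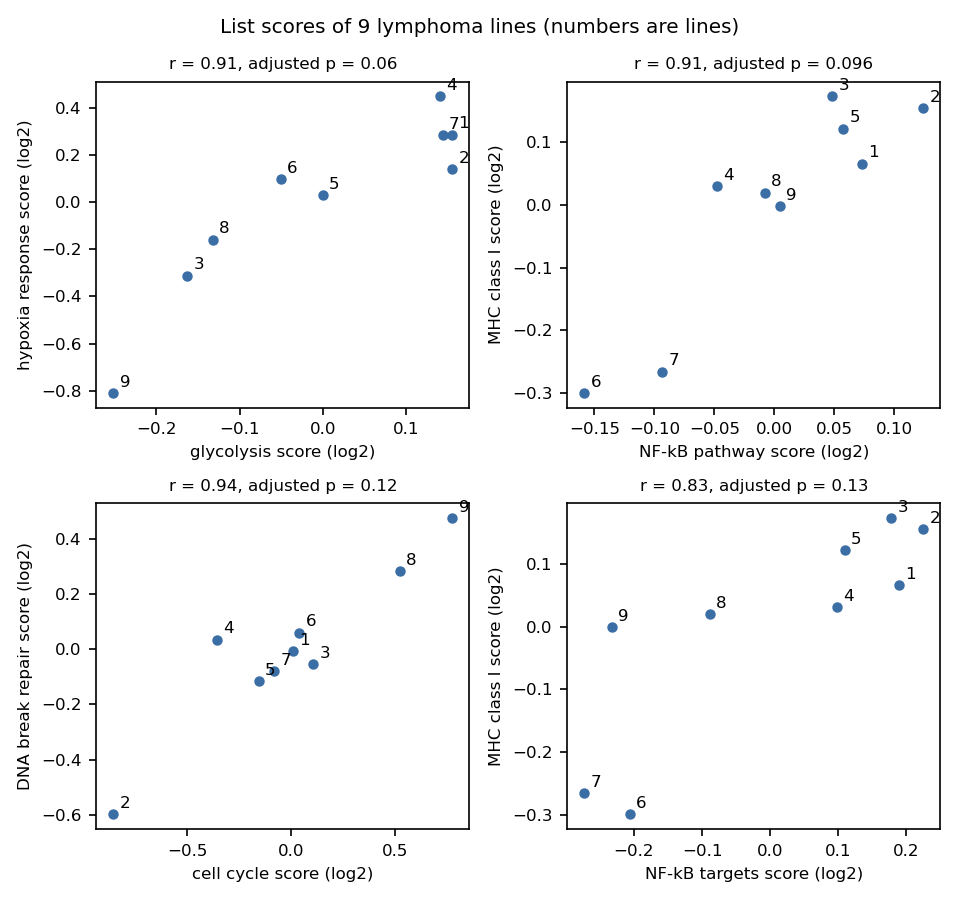
Scores of the 9 lines for 4 pairs of function lists (log2, relative to the mean over lines), with each point numbered by its line, and Pearson's r and the p adjusted over 300 pairs above each panel. Line 9 is at the low end of glycolysis and hypoxia and at the high end of cell cycle and repair, and lines 6 and 7 are low for MHC class I.

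Ribosomal protein genes varied little but in step. The median SD of the 34 tested members was 0.256, under the 0.386 of all genes, while their mean correlation was 0.655. Line 5 was highest for 29 of the 34, and the score ran from -0.25 in line 8 to 0.43 in line 5. Its size depended on the scaling, since it ran only from -0.11 in line 8 to 0.10 in line 5 after quantile normalisation, and from -0.48 in line 7 to 0.42 in line 5 with arrays centred on the median. Rpl37 was lowest in lines 7, 8 and 9 at 6.83, 6.61 and 6.74 and stood at 7.21 to 7.92 in the others, and Rps15 was likewise lowest there, at 5.14, 4.95 and 5.00 against 5.49 to 6.08. These 3 lines are those of the shared slide, so for these genes slide and line cannot be told apart. Rplp0 did not follow this order, at 8.29 to 8.81 with lines 2 and 3 lowest. Over the 34 members, line 8 was lowest for 14, line 2 for 11, line 3 for 4, line 6 for 3, line 7 for 2 and line 9 for 0. Genes of oxidative phosphorylation had a median SD of 0.243 over 36 members, and the score was lowest in line 7 at -0.31 and highest in line 5 at 0.24. After quantile normalisation it ran from -0.17 in line 7 to 0.13 in line 3, and with arrays centred on the median line 7 was at -0.74.

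Genes of growth and survival differed in how widely they varied. Myc ran from 2.14 to 3.53, with line 6 highest, and Ccnd2, a D-type cyclin gene, from 5.92 to 6.82. Ccnd3 was highest in line 9 at 4.79, the other lines lay between 3.01 and 4.02, and the arrays of line 8 were at 3.21 and 4.67. Bcl2 and Mcl1, which block cell death, ran from 1.99 to 3.64 and from 5.17 to 6.14. Bcl2l11, which encodes the death inducer BIM, ranged 61.3-fold, at -4.69 in line 1, -3.66 in line 5, -3.02 in line 8 and up to 1.25 in line 2. Cdkn2a, the locus of the p16 and ARF tumour suppressors, ran from -3.77 in line 5 to -0.59 in line 6. Trp53 was at 1.44 in line 3 and -0.70 to 0.27 in the others, but a second probe for it correlated with the first at -0.40, so that difference rests on 1 probe. The p53 target list did not move together, with a mean correlation of 0.0378 over 31 members.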

How the data were processed

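RNA of 9 lymphoma lines had been hybridised to 10 one-colour Agilent arrays. The values used are spot intensity values from the deposited scanner files, background-corrected by Feature Extraction 10.7.1.1 per the file headers (probe design build mm9). The authors' deposited value table holds log2 values whose differences between arrays correlate at 1 with the scanner values. It served as an alternative. The scanner files were used.

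Control spots (1639 per array) and outlier spots were dropped, leaving up to 43379. Spots of a probe were averaged, scaled to the 75th percentile of the array and taken to log2. Symbols came from the accessions of the probes through RefSeq annotation (GRCm38.p6), which named 26690 of 41174 probes. Of 23589 probes well above background in at least 5 lines, the 6004 without a symbol were passed over. A gene was represented by its probe with the highest mean. The arrays of line 8 were averaged and gave the residual of the F-test (limma 3.58.1, R 4.3.3, Benjamini-Hochberg adjustment). Pairs of list scores were tested by the exact permutation of the 9 lines over 300 pairs (Python 3.11.15, scipy 1.17.1). Folds of on over off lines are lower bounds, from group means of log2 levels, with each off line at the higher of its own level and the lowest signal called above background on its array. Precision is limited by the number of arrays.

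The members, the 38 gene lists and the tests were chosen with earlier results of these data known. The genes named are those on in all lines with the 20 largest and 10 smallest SDs, the 20 on in 5 to 8 lines and the 10 on in 1 to 4 lines with the largest bound of the highest line over an off line, the 3 most and 1 least variable members of each list, a fixed set, and the 5 genes most like each of 4 variable genes. Clone and predicted genes did not count, not all others are described, and a few list members outside the rule were named after their values were seen. Some items are not reported here. Statistics were tested on simulated data. Alternatives were other scalings, background correction, filters, probes, the value table, no slide 6, each line left out, another measure of spread, and the arrays of line 8 apart. The normexp correction used median signals, since the files hold no mean signals, and was chosen after seeing the data.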

Additional observations from a re-analysis of the deposited data

Results flagged for a closer look

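In 15 of the 118 genes checked, 1 line lay so far from the next that the gap, as a part of the range, passed Dixon's 95% critical value for 9 lines. Chance gives about 1 in 20 groups, and 792 of all 11830 tested genes (6.69%) had such a gap. Most of the genes checked had been chosen for a wide spread, so the count says nothing about genes in general. Line 5 was lowest for Lef1 at -6.17 (next line -1.17), Arl4c at -4.55 (1.80), Lgals1 at -1.93 (2.62), Ehd3 at -4.75 (1.32) and Slc16a3 at 1.20 (3.55). Line 1 was lowest for Ptpn13 at -8.33 (-2.08) and Daam1 at -8.55 (-2.43), both below background there. Line 2 was highest for Fcgr4 at 1.32 (-3.06) and Magi1 at 3.33 (-7.14) and lowest for Cdk1 at 0.68 (2.14). Line 9 was highest for Adgre1 at 4.10 (-0.09), line 6 for Slco3a1 at 2.39 (-5.49), and line 3 for Hba-a1 at 0.97 (-3.44) and Trp53 at 1.44 (0.27). Line 8 was lowest for H2-Eb2, a class II chain gene, at -3.31 (-2.29), with its arrays at -2.14 and -4.47. None of the 36 list scores had such a gap.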

How the results depend on the processing

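Without the filter on dim probes the F-test called 4473 of 18199 genes, against 0 of 11830 with it. The cause was not tested. It called 0 with each line but line 8 left out in turn, and it could not be fitted without an array of line 8, which leaves no residual. The slide comparison gave 0 to 1 calls with a line left out. The 1 gene, called without line 2, was Zfp180. Genes with an SD of at least 1 numbered 498 under normexp background correction, 493 of them among the 1360, 3295 of 18200 without the filter, 651 of 10427 when all lines had to be above background, and 1186 to 1325 with a line left out. Genes on in some lines and off in others numbered 1027 to 1281 with a line left out. Lists with a median SD above that of all genes numbered 26 of 36, and 25 to 27 with a line left out. Pairs of lists past the threshold numbered 2 with arrays centred on the median, 3 under normexp, 3 with the arrays of line 8 apart, and 0 with each line left out. Cell cycle with DNA break repair passed in these 3 settings, NF-kB pathway with MHC class I in the last 2, and glycolysis with hypoxia in the last. The other 2 pairs that passed, once each, were NF-kB pathway with the NRF2 antioxidant list (centring) and ATF4 targets with the secretory list (normexp). Over 21 settings the adjusted p of these ranged from 0.0370 to 0.797 for cell cycle with repair and from 0.0370 to 0.701 for glycolysis with hypoxia. With arrays centred on the median, r changed sign for the BCL2 family with housekeeping genes, to 0.15, and for glycolysis with MYC and ribosome biogenesis genes, to 0.27. That centring moved line 7 by -0.42 and the other lines by -0.13 to 0.16. Of 2164 values of SD of single genes, 124 moved by over 1.5 times. The other summary values kept their size, since 8 of 100 moved. No paired analysis was possible because only 1 group of lines was used. Levels below background limit the low genes, whose spread is wider.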

Other observations

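Some lines had genes of a whole chromosome slightly raised or lowered together, a description added after seeing the data, using genes on in all 9 lines and giving the median level against the other lines minus the same over all other chromosomes. Line 2 was higher by 0.41 on the log2 scale over 586 genes of chromosome 1, where 81.9% of genes were above the other lines, against 44.3% elsewhere. Over the 330 genes of chromosome 16, lines 5 and 4 were higher by 0.31 and 0.23, and over the 476 genes of chromosome 6 by 0.25 and 0.30. Line 6 was higher by 0.26 on chromosome 5. On chromosome 14, line 2 was higher by 0.30 and the array of line 8 without the repeat mark by 0.38, while the repeat array was higher by 0.33 on chromosome 12. Of 200 values of a chromosome on an array, 11 were beyond 0.2 in size, and the median size was 0.0440. No DNA was measured in the lines here.

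Cholesterol synthesis genes had a mean correlation between members of 0.40 over 24 tested genes, with scores from -0.44 in line 7 (-0.86 with arrays centred on the median) to 0.28 in line 5. Immediate early genes, which answer signals within minutes, scored 0.41 to 0.53 in lines 2, 3 and 5 and -0.37 to -0.04 in the other 6. Interferon response genes scored highest in line 3 at 0.49, where 11 of the 26 tested members peaked, and lowest in line 9 at -0.39, or in line 7 with arrays centred on the median. Cmpk2, a nucleotide kinase gene of that list, was at -6.22 in line 5 and -4.21 in line 4 and ran from -2.47 to -0.19 in the others, while Ifit3, an RNA-binding effector gene, was lowest in line 9 at -5.80.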
